A study of Homo sapiens with 16 samples.

Results

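Of 75610 genomic regions that carried an ATAC-seq peak in every one of 4 libraries, 9575 were less enriched in cells given the kinase inhibitor sorafenib, a drug for liver cancer, than in cells given its solvent DMSO. Peaks of the 4 libraries that shared at least 1 bp on chromosomes 1 to 22 and X had been merged into 220915 regions, and those with a peak in all 4 are called shared regions. For each library the highest fold enrichment in the region was taken, which is the pile-up at a peak's summit over the local background. A shared region was a member where the mean of the 2 sorafenib values divided by the mean of the 2 DMSO values was 0.55 or less and both sorafenib values lay below both DMSO values. Members made up 12.7% of the shared regions, and the mirrored rule (the inverse ratio, with no overlap in the other direction) took 1045 regions, or 1.38%. The members were thus chosen by these fold enrichments, which are given below as a description with no test.

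ATAC-seq marks accessible DNA by the insertion of a transposase, and its peaks fall on promoters and on more distant elements such as enhancers. Promoters are often open in all cells and rich in CpG, while distal elements differ more between cell states and often hold sites for factors such as AP-1 (the FOS and JUN family, an endpoint of growth factor and stress kinases) and TEAD (the DNA-binding partners of YAP). Sorafenib blocks RAF and several receptor tyrosine kinases upstream of those kinases. Metallothioneins, which the series title names through MT1G, are small zinc-binding proteins whose promoters are driven by the zinc-sensing factor MTF1.

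All samples were labelled Huh7, an established line from a human hepatocellular carcinoma. ATAC-seq covered 2 samples with sorafenib (replicates 3 and 4 by title) and 2 with DMSO (replicates 1 and 2). RNA-seq of polyadenylated RNA covered 3 samples with sorafenib and 3 with DMSO, and 3 samples overexpressing MT1G and 3 with an empty vector. No dose, time or MT1G construct was stated, and whether replicates were grown separately is not given. Each p-value therefore covers the spread among the libraries at hand, which may be technical. The RNA of these cells lacked most defining markers of the labelled line. Of 12 hepatocyte and hepatoma markers only HNF4A reached 10 normalized read counts in any library of the sorafenib experiment, ALB, APOB and FOXA2 were listed at 0 in all of its 6 libraries, and the other 11 never exceeded 5.44 there or 4.97 in the MT1G experiment. Of the other lists, 5 of 6 stellate and fibroblast markers reached 10, led by LUM with means of 447 under sorafenib and 1779.6 under DMSO. So did 2 of 4 endothelial and 2 of 5 leukocyte markers, whose means stayed at or below 50.8. LUM, DCN and CDH5 were lower with sorafenib, COL3A1 and CD14 were higher, and COL1A1, PDGFRB and VWF did not pass the test. The part of such cells in the RNA results was not tested. Whether the ATAC-seq samples came from the same cells could not be checked with these RNA values.

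The promoters that the results turn on are shown first, as 300 bases from RefSeq (GRCh38.p14) that run from 250 bases before a listed transcription start to 50 bases after it, on the strand of the gene. Capitals mark matches on either strand to TGCACNC (a form of the core bound by MTF1), the AP-1 element TGACTCA and the TEAD element GGAATGT. Other forms of the MTF1 core were not searched and stay in lower case, so the MTF1 matches marked are a minimum. MT1X is shown because its promoter was a member while its RNA rose by 6.74 on the log2 scale, and because it held MTF1 matches (chr16:56682220-56682519, plus strand). MUC13 (chr3:124934702-124935001, minus strand) and TRIM54 (chr2:27282179-27282478, plus strand) are the tested genes whose window held both an AP-1 and a TEAD match. PRSS23 (chr11:86790821-86791120, plus strand) had the lowest ratio among tested genes that start in a member, and IL1B (chr2:112836730-112837029, minus strand) is a cytokine gene whose RNA rose. The last 2 windows hold none of the 3 motifs.
MT1X: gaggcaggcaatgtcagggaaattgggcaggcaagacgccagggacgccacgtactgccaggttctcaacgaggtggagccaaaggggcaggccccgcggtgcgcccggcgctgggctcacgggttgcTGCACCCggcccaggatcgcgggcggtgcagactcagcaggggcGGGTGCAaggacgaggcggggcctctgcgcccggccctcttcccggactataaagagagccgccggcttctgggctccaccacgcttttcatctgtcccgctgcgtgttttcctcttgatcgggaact
MUC13: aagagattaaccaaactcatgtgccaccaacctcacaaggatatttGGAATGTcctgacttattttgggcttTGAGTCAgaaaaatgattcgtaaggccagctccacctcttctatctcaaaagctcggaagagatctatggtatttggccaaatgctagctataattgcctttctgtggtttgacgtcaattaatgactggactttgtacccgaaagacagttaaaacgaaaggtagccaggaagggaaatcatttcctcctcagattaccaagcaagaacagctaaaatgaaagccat
TRIM54: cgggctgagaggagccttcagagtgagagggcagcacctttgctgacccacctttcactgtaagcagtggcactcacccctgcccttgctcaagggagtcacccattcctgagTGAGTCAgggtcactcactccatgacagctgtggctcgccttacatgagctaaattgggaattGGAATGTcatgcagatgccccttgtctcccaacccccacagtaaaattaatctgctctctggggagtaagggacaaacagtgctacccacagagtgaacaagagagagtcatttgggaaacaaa
PRSS23: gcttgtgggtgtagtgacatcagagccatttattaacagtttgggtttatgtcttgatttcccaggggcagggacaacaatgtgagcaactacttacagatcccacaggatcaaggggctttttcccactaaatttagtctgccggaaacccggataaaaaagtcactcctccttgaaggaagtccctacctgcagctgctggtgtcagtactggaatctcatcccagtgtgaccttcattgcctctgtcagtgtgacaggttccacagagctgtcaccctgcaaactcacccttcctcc
IL1B: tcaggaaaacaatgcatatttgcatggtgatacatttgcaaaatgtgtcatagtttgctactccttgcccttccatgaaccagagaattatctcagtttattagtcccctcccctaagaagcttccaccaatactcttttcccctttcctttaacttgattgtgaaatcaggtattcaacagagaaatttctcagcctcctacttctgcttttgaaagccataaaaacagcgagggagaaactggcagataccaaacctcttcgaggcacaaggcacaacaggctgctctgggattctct

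Members went together with low, narrow peaks in the sorafenib libraries and tall, wide ones in the DMSO libraries. Their median fold enrichment was 5.51 and 5.57 in the sorafenib libraries, against 11.5 and 14.5 in the DMSO libraries. Single values ran from 1.97 to 15.1 and from 1.74 to 16.3 with sorafenib, against 3.47 to 26.3 and 4.09 to 32.5 with DMSO. The median member peak was 279 and 268 bp wide with sorafenib and 691 and 663 bp with DMSO. In the other shared regions it was 448 and 437 bp with sorafenib and 620 and 605 bp with DMSO. The median of -log10 q, the peak caller's significance, was 10.7 in each sorafenib library, against 43.3 and 87.7 in the DMSO libraries. All members were called as peaks in all 4 libraries by the rule, so these were regions still open under sorafenib at a lower height.

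The DMSO libraries were themselves taller at the median. The median fold enrichment over all shared regions was 8.26 and 8.12 in the sorafenib libraries and 9.31 and 11.8 in the DMSO libraries. The median ratio of all shared regions was therefore 0.841 and not 1. It differed with level. Where the DMSO mean was below 5 the median ratio was 1.12, and from 10 to 15 it was 0.774. The DMSO mean that sets these levels is also the denominator of the ratio. When each library was divided by its own median, 3165 regions passed the same rule in the lower direction and 3663 in the higher. The lower share of all calls was then 46.4%, against 90.2% with the values as deposited. All 3165 of these were members, 33.1% of the 9575. After that division the median ratio was 0.601 in members and 1.14 in other shared regions, an order that the rule itself fixes. How many regions count as lower, and whether more fell than rose, depends on that choice. DMSO replicate 2 had the higher fold enrichment of the DMSO libraries in 91.2% of members and 86.7% of other shared regions, with a median of 1.25 times replicate 1 in members. The sorafenib libraries split evenly, with replicate 4 the higher in 50.2% of members.

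**Figure D1:**
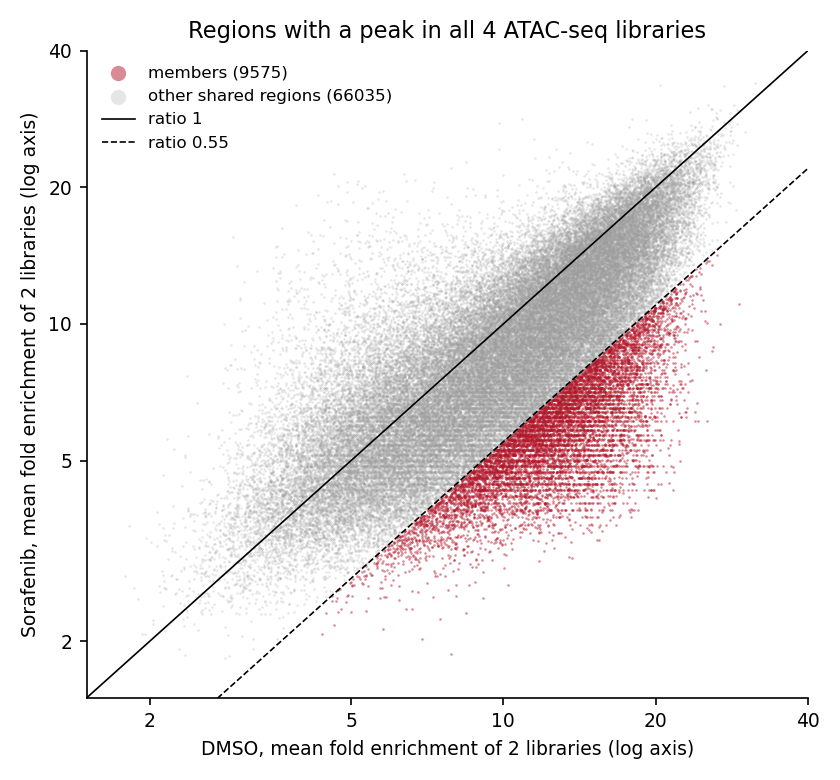
Mean fold enrichment of the 2 sorafenib libraries (vertical, log axis) against that of the 2 DMSO libraries (horizontal, log axis) for all 75610 shared regions, 1 point a region, with members in red and other shared regions in grey. The grey cloud sits slightly below the line of equal values (median ratio 0.841 over all), and the 9575 members lie on or below the dashed line at a ratio of 0.55.

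The members formed a continuous tail and no separate group. Their ratios ran from 0.198 to 0.549984 with a median of 0.466. Of the members 31.7% had a ratio above 0.5, 25.1% had one above 0.45 and up to 0.5, and 88 (0.919%) were at or below 0.25. The member nearest the limit, chr16:75614086-75615172 in ADAT1, had 11.4 and 11.2 with sorafenib and 19.2 and 21.9 with DMSO, a ratio of 0.549984. The nearest region outside, chr7:155584957-155585635, had 3.65 and 5.06 with sorafenib and 6.91 and 8.93 with DMSO, a ratio of 0.550043. Regions low in DMSO were seldom members. With a DMSO mean below 5 only 0.218% of shared regions were members, while the share was 18.9% between 10 and 15 and 17.9% from 15 upward. The rule itself works against low regions. The DMSO mean is the denominator of the ratio, and a member needs a peak in both sorafenib libraries. The lowest peaks there had a fold enrichment of 1.64 (replicate 3) and 1.53 (replicate 4).

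The 10 members with the lowest ratios lay 8.86 to 198 kb from the nearest listed start. The lowest of all, chr4:106444433-106445070, lies in the span of LINC02173 and 10.8 kb from a listed start. It had 4.95 and 3.64 with sorafenib, against 17.1 and 26.3 with DMSO, a ratio of 0.198. Another member among these 10, inside the developmental repressor gene DACH1 (chr13:71750781-71751668), had 4.68 and 3.08 with sorafenib and 16.4 and 19.9 with DMSO. In both regions no sorafenib value exceeded 4.95, and every DMSO value lay above its library's median over the members. The tallest member under DMSO, chr7:46138968-46139627, lies 115 kb from any listed start and had 14.3 and 7.85 with sorafenib, against 26.3 and 32.1 with DMSO.

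Members avoided gene starts. Off chromosome 8, for which no starts were listed, 241 of 9116 members held a listed transcription start (2.64%), against 16.6% of the other shared regions. The median distance to the nearest listed start was 34.1 kb for members and 18.96 kb for other shared regions, and 19.3% of members and 11.9% of other shared regions lay more than 100 kb away. The gap was as wide among tall regions: of those with a DMSO mean of 10 or more, 2.10% of members and 21.1% of other shared regions held a start. Among the 3012 members off chromosome 8 that stayed after division by the library median the share was 1.83%. Regions of the mirrored rule were also mostly distal, with 4.49% holding a start and a median distance of 31.1 kb. Of the members 65.1% touched a gene span, compared with 69.0% of other shared regions.

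**Figure D2:**
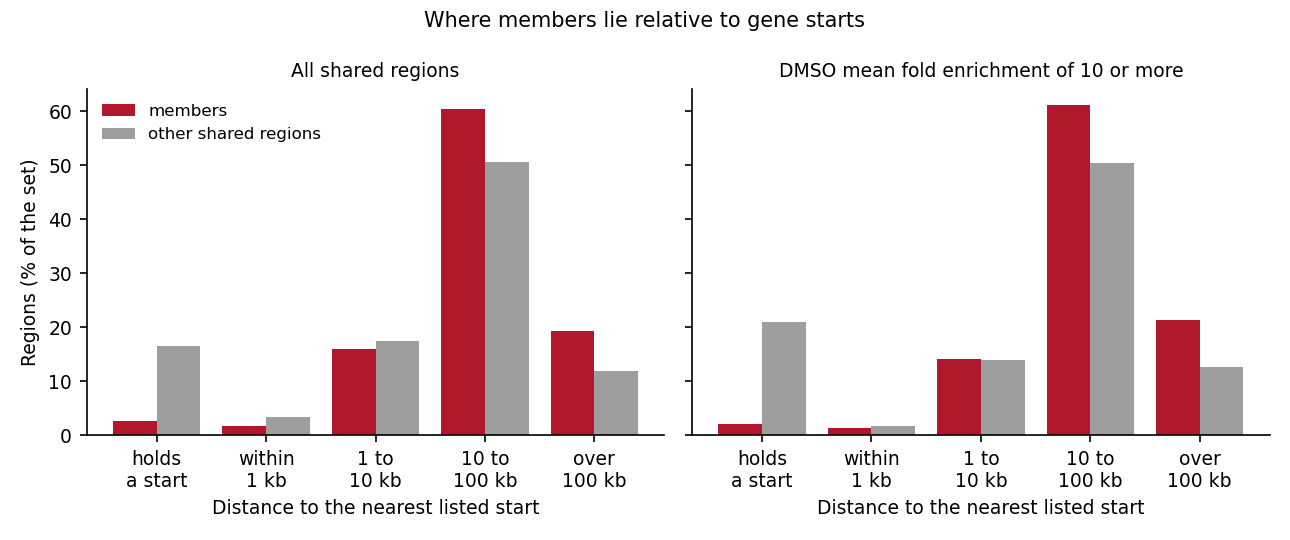
Bars give the percent of members (red) and of other shared regions (grey) in each class of distance to the nearest listed start, chromosome 8 left out, for all shared regions (left) and for those with a DMSO mean fold enrichment of 10 or more (right). Regions that hold a start are 2.64% of members and 16.6% of other shared regions on the left, and 2.10% and 21.1% on the right.

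The share of members also differed between chromosomes. It was highest on chromosome 4 (19.8% of 3249 shared regions) and lowest on chromosome 19 (5.17% of 2611), with 7.81% on chromosome 22 and 8.80% on chromosome 17. Over 23 chromosomes the share fell with the number of protein-coding genes per Mb (Spearman -0.68, Pearson -0.74). Without regions that hold a start the relation was still seen over 22 chromosomes (Spearman -0.58). Chromosomes share their libraries and differ in base composition, so these are descriptions. After division by the library median chromosome 4 was still the highest, at 7.79%, and chromosome 19 the lowest, at 1.23%.

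**Figure D3:**
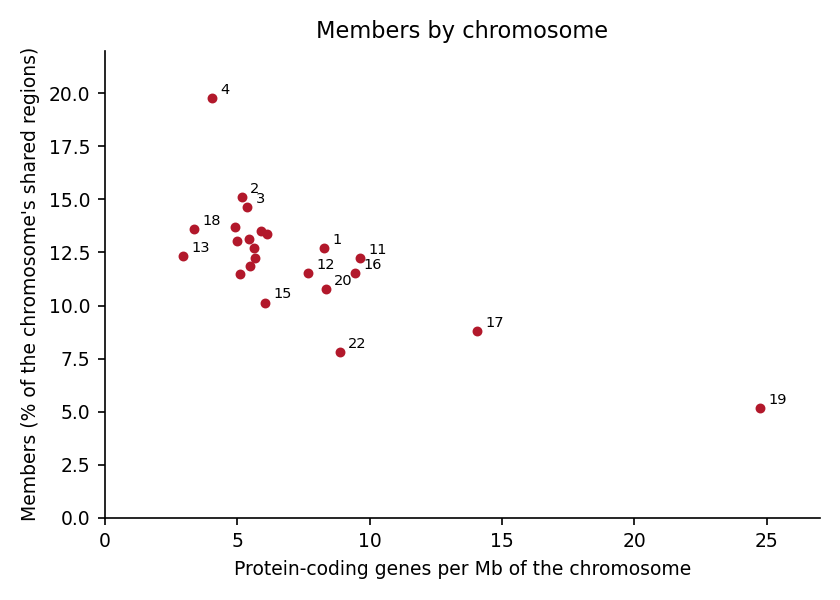
Members as a percent of each chromosome's shared regions (vertical) against its protein-coding genes per Mb (horizontal), 1 point for each of 23 chromosomes, with crowded points unlabelled. Chromosome 4, at 4.05 genes per Mb, has 19.8% members and chromosome 19, at 24.8 genes per Mb, has 5.17%.

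Some stretches of a megabase were dense in members. In 1691 windows of 1 Mb with at least 20 shared regions the median share was 11.1%, and 72 windows held no member. The highest share, 11 of 21 shared regions, was in the window from 1000001 to 2000000 on chromosome 3, which holds the neural adhesion gene CNTN6. Next came chromosome 4 from 174000001 to 175000000 with 11 of 25, around HPGD, which breaks down prostaglandins. The window with the most members among the 6 densest, 17 of 43, was on chromosome 7 from 17000001 to 18000000 at AHR, the ligand-activated aryl hydrocarbon receptor. Regions found in both DMSO libraries and neither sorafenib library numbered 26467, against 14131 found in both sorafenib libraries and neither DMSO library. These counts were not adjusted for the higher median of the DMSO libraries or for the number of peaks. Peaks numbered 139287 and 135665 in the sorafenib libraries and 131238 and 156757 in the DMSO libraries. Such DMSO-only regions lay within 10 kb of 23.04% of members and 21.9% of other shared regions, and sorafenib-only regions within 10 kb of 9.75% of members and 10.6% of other shared regions.

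Gene starts in members were poorer in CpG and held other motifs than starts in other shared regions. Sequence was at hand for start windows only, so the distal members are not covered. The 275 distinct windows in members had a median of 7 CpG and 56.7% GC, against 26 CpG and 65.3% GC for 15097 windows in other shared regions, and 14 CpG and 58.7% GC for all 34789 listed windows. The AP-1 element TGACTCA was in 15.3% of windows in members, 4.72% of windows in other shared regions and 4.93% of all listed windows. The TEAD element GGAATGT was in 8.36% of windows in members, 2.32% in other shared regions and 3.48% of all. The GATA element AGATAAG was in 11 of the 275 windows in members, 1.07% in other shared regions and 2.67% of all. Elements of housekeeping promoters went the other way. The GC box GGGCGGG was in 29.5% of windows in members, 52.8% of windows in other shared regions and 33.1% of all, and the ETS element CCGGAAG in 3.64%, 18.9% and 10.2% in the same order. AAGATGGCG, the core bound by YY1, was in none of the windows in members, in 3.72% of those in other shared regions and in 1.76% of all.

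Most of the AP-1 difference went with CpG content. Among windows with at most 9 CpG, the AP-1 element was in 24.7% of 158 windows in members and 21.4% of 1671 windows in other shared regions, against 8.11% of all 15187 such windows. Among windows with 20 or more CpG it was in 0 of 70 windows in members, 2.15% of those in other shared regions and 1.87% of all. The TEAD element kept a wider gap at low CpG, with 13.3% in members, 7.24% in other shared regions and 5.59% of all such windows. ETS matches stayed rarer in members at 20 or more CpG (5 of 70, or 7.14%, against 21.6% in other shared regions and 18.3% of all), and GC boxes did not (72.9%, 63.7% and 63.4%). The searched form of the MTF1 core, TGCACNC, was in 12.7% of windows in members, 11.3% in other shared regions and 12.1% of all. Other forms of that core were not counted. A match describes letters only, and overlapping windows of a gene with several starts share sequence.

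Of 1562 listed microRNA hairpins 145 lay in shared regions, and 9 of these 145 lay in members. That is below the 12.7% of shared regions that were members. MicroRNAs themselves were not measured. The region chr17:81125493-81126018 held the overlapping hairpins of miR-338 and miR-3065, which lie on opposite strands, and had 3.99 and 3.32 with sorafenib, against 4.42 and 10.3 with DMSO. The region with the hairpin of miR-422a (chr15:63870035-63871173) had 6.00 and 7.63 with sorafenib, against 12.5 and 18.99 with DMSO. Their mature sequences from RefSeq (GRCh38.p14) follow, with the seed, bases 2 to 8, in capitals. No seed was shared among them.
hsa-miR-338-3p: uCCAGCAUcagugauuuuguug
hsa-miR-3065-5p: uCAACAAAaucacugaugcugga
hsa-miR-422a: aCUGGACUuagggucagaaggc

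The RNA-seq values did not enter the choice of members, so the RNA of nearby genes could be tested. Tests used limma after adding 1 to each normalized read count and taking log2, with Benjamini-Hochberg adjustment and a threshold of 0.05, and a log2 change is sorafenib over DMSO on that scale, which understates the change of low genes. The 6 libraries of the sorafenib comparison held 16549330 to 21082356 reads counted in genes. Over all 14915 genes tested 35.8% were lower and 34.4% higher with sorafenib. A gene was linked to a member that lay within 2 kb of its span. This took 5725 members (59.8%) and 4218 genes, of which 2655 were tested.

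Genes linked to a member were lower with sorafenib somewhat more often. Of the 2655 tested, 1093 (41.2%) were lower and 744 (28.0%) higher, with a median log2 change of -0.10. Of 10108 genes linked to a shared region but to no member, 37.6% were lower and 34.6% higher, with a median of -0.03, and the median of all genes was -0.02. Linked genes are long, with a median span of 83.6 kb against 18.7 kb for genes linked to shared regions only, and the gap depended on length. For spans of 50 to 150 kb 43.4% of genes linked to a member and 38.3% of those without one were lower. For spans over 150 kb 364 of 910 genes with a member and 41.8% of those without one were lower. Without a filter on low values the median of linked genes was 0.02. Of 240 tested genes linked to a region of the mirrored rule 34.2% were lower and 32.9% higher, with a median of -0.05.

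Among genes whose start lay in a member the share that fell was larger. There were 180 such genes, 144 protein-coding and 36 long non-coding, of which 114 were tested. Of these 63 (55.3%) were lower and 31 (27.2%) higher with sorafenib, and 20 did not pass. The median log2 change was -0.39, against -0.05 for 9170 genes with a start in a shared region and none in a member, of which 39.1% were lower and 33.8% higher. Of the 22 tested genes that start in a member kept after division by the library median, 13 were lower and 7 higher. Of 29 tested genes with a start in a region of the mirrored rule 13 (44.8%) were lower and 10 (34.5%) higher. Their median log2 change was -0.12, so falls were also the more frequent call where the ATAC-seq values were higher with sorafenib. The median level of the tested genes was 303 normalized read counts when a start lay in a member and 658 when it did not. In bulk samples fewer cells that express a gene and less RNA per cell cannot be told apart.

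**Figure D4:**
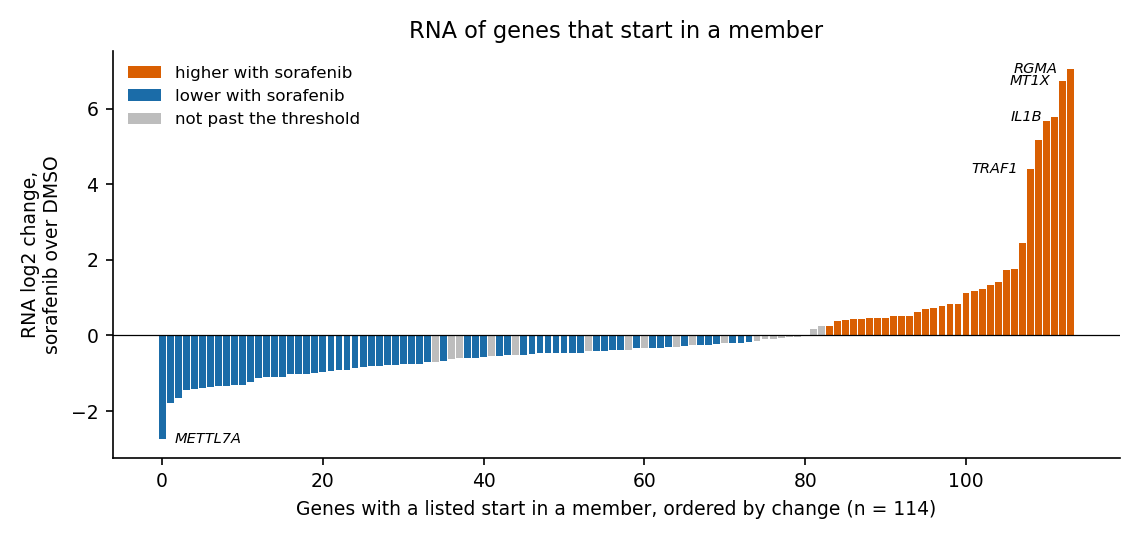
Bars give the RNA log2 change, sorafenib over DMSO, of the 114 tested genes with a listed start in a member, ordered by value. Orange bars are the 31 genes higher and blue bars the 63 genes lower at the limma threshold, grey bars are the 20 that did not pass, and 5 genes are named beside their bars.

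Genes that start in a member and fell covered several functions. PRSS23, a secreted serine protease, had the lowest ratio of these starts: its region chr11:86790100-86791320 had 3.86 and 3.37 with sorafenib, against 12.6 and 14.5 with DMSO. PRSS23 RNA stood at 1939, 1892 and 1961 normalized read counts with sorafenib, against 4624, 4455 and 4565 with DMSO (log2 change -1.24, SE 0.06, adjusted p = 1.1e-11 by limma). The RNA values of the groups did not overlap. The region was the only member among 14 shared regions of PRSS23 and lay at 1 of its 2 listed starts. METTL7A, a methyltransferase-like protein of lipid droplets, had the largest fall, to 74.7 ± 3.99 normalized read counts with sorafenib, against 507 ± 29.0 with DMSO (SD, n = 3 each; log2 change -2.75). Its start region had 6.99 and 7.01 with sorafenib and 13.8 and 14.2 with DMSO.

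Receptors and nuclear receptors were among the falls. EPHB4, an ephrin-B receptor kinase, had 901, 805 and 824 normalized read counts with sorafenib, against 2585, 2564 and 2784 with DMSO. Its region (chr7:100827399-100828277) had 5.11 and 4.37 with sorafenib and 8.28 and 10.7 with DMSO. RXRA, the retinoid X receptor that pairs with many nuclear receptors, had a mean of 1528 ± 72.6 with sorafenib and 3869 ± 228 with DMSO (log2 change -1.34), and 3 of its 15 shared regions were members. The member over a start of RXRA also holds the hairpin of miR-4669. RARG, a retinoic acid receptor, fell by 0.74 on the log2 scale and NR2F1, an orphan nuclear receptor, by 1.45. AXL, a receptor kinase, had 4541 ± 46.3 with sorafenib and 5641 ± 216 with DMSO, and LIFR, the receptor of leukaemia inhibitory factor, 2602 ± 189 with sorafenib and 3190 ± 396 with DMSO. Both passed the limma test, while the values of LIFR overlapped between the groups. The member lay at 1 of 2 listed starts for RXRA, NR2F1 and AXL and at 1 of 3 for LIFR.

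MUC13, a membrane mucin, had 2159, 2198 and 2268 normalized read counts with sorafenib, against 4434, 4610 and 4105 with DMSO. Its region (chr3:124933670-124935209) had 4.35 and 3.74 with sorafenib and 9.001 and 8.66 with DMSO. NES, the intermediate filament protein nestin, had a mean of 440 ± 30.0 with sorafenib and 950 ± 54.3 with DMSO, and SYDE1, a GTPase-activating protein, 1277 ± 59.9 with sorafenib and 2279 ± 124 with DMSO. CYBA, a subunit of NADPH oxidases, had 4168 ± 605 with sorafenib and 7887 ± 686 with DMSO. The muscle gene TRIM54, whose window is shown above, had 81.0 ± 8.19 with sorafenib and 118 ± 22.7 with DMSO (log2 change -0.53). Further falls included the polysialyltransferase ST8SIA4 (log2 change -1.77), the zinc finger gene ZMYM3 (-1.43), the hyaluronidase HYAL1 (-1.36), the lipid droplet protein PLIN4 (-1.35) and cyclin F, encoded by CCNF (-1.31).

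The largest changes in RNA among genes that start in a member were rises, against the direction of the ATAC-seq values. MT1X, a metallothionein, had 6289, 5322 and 5028 normalized read counts with sorafenib, against 43.9, 60.7 and 49.1 with DMSO (log2 change 6.74, SE 0.11, adjusted p = 8.2e-17 by limma). Its start region, chr16:56681866-56684095, had 7.06 and 8.13 with sorafenib and 15.4 and 18.7 with DMSO, a ratio of 0.446. Metallothionein genes are close copies, so their reads can be split by the authors' counting in ways that cannot be checked here.

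At MT1X the peaks changed shape as well as height. The summit lay at -95 and -113 bases relative to the listed start with sorafenib and at -95 and -96 with DMSO, all inside the printed window. The sorafenib peaks ran from 56681999 to 56684058 and from 56682006 to 56684095, while the DMSO peaks ran from 56681878 to 56682914 and from 56681866 to 56682924. The sorafenib peaks thus reached over most of the gene, which ends at 56684196, and made this the widest member, at 2230 bp, while the median member was 755 bp wide. The -log10 q of the peaks was 109 and 143 with sorafenib and 130 and 296 with DMSO. The column used is relative to local background, so it does not measure the total signal under a wider peak, and the part of peak width in the low ratio was not tested.

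Other genes with a start in a member also rose. RGMA, a guidance molecule and co-receptor for BMP ligands, had 338, 421 and 317 normalized read counts with sorafenib, against 1.12, 1.93 and 2.18 with DMSO (log2 change 7.05). The start in question is 1 of 5 listed for RGMA, and its region had 4.83 and 4.37 with sorafenib and 8.33 and 13.0 with DMSO. TRAF1, an adaptor of TNF receptors, had 460, 457 and 433 with sorafenib, against 19.1, 21.2 and 20.7 with DMSO (log2 change 4.40). Its region, at 1 of 3 listed starts, had 3.49 and 2.404 with sorafenib and 6.57 and 8.77 with DMSO. IL1B, the cytokine interleukin 1 beta, was chosen after its values were seen, since it fell under the level set for named genes. The gene had 142, 131 and 135 with sorafenib, against 0, 3.86 and 2.18 with DMSO, while its region had 6.84 and 8.41 with sorafenib and 13.9 and 16.1 with DMSO. In none of these genes did the RNA values of the groups overlap. Smaller rises were in the non-coding RNAs LINC-PINT (log2 change 1.33) and MIR100HG (1.11), the adaptor SHB (1.17), the Golgi GTPase ARFRP1 (0.72) and the actin-oxidizing enzyme MICAL2 (0.70). LINC-PINT and MKLN1 start in the same member, and MKLN1 fell (log2 change -0.46). Strand use in the counting was not stated, so reads of such overlapping or opposite genes cannot be separated.

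**Figure D5:**
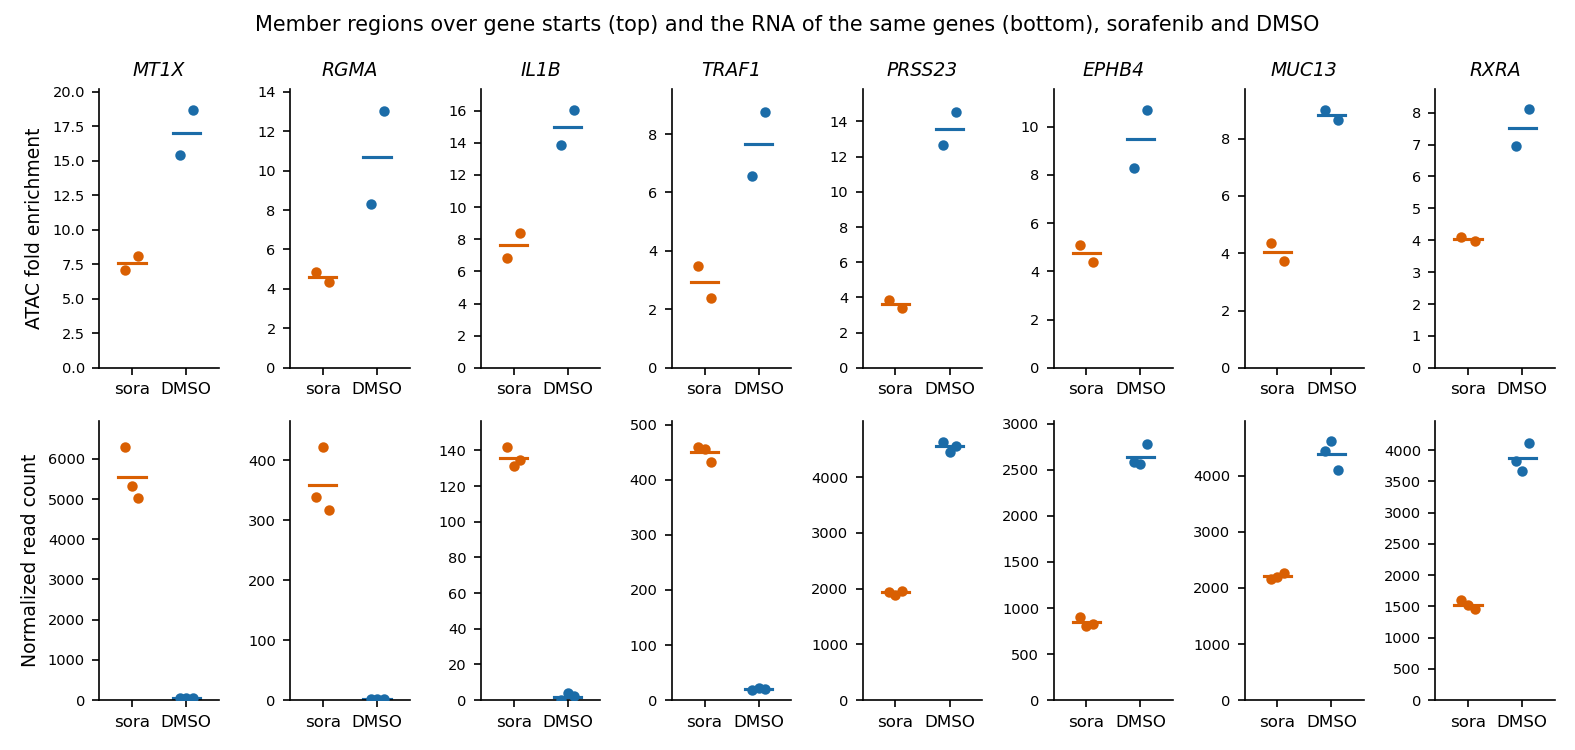
Fold enrichment of the member over a start (top, 2 libraries a group) and normalized read counts of the same gene (bottom, 3 libraries a group) for 8 genes, with sorafenib (orange) left of DMSO (blue), points for libraries, bars for means and every axis from 0. All 8 regions are lower with sorafenib by the rule, while RNA is higher with sorafenib for MT1X, RGMA, IL1B and TRAF1 and lower for PRSS23, EPHB4, MUC13 and RXRA.

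Further linked genes had no listed start in a member, although EPPK1 and SNAI2 lie on chromosome 8, where no starts were listed. EPPK1, the cytoskeletal linker epiplakin, fell to 187 ± 5.68 normalized read counts with sorafenib, against 2552 ± 87.0 with DMSO (log2 change -3.76). SEMA4C, a semaphorin, had 66.4 ± 12.2 with sorafenib and 674 ± 72.5 with DMSO. The developmental signalling genes NOTCH3 (542 ± 16.7 with sorafenib and 3474 ± 43.1 with DMSO), WNT5A (233 ± 13.2 and 1410.3 ± 108 in that order) and SMOC1, a secreted BMP antagonist (678 ± 53.0 and 4396 ± 182 in that order), fell by 2.59 to 2.70 on the log2 scale. PPARGC1B, a coactivator of mitochondrial genes, fell by 2.14 with 2 members in 9 shared regions. Rises were in NEDD9, a scaffold of integrin signalling (662 ± 11.3 with sorafenib and 44.5 ± 4.46 with DMSO), in the actin-binding kelch protein ENC1 (519 ± 32.4 and 38.1 ± 3.07 in that order) and in SNAI2, the repressor Slug (1019 ± 42.2 and 120 ± 3.35 in that order). Their members were 2 of 8, 1 of 5 and 1 of 3 shared regions.

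The genes with the most members were long, and their RNA moved in both directions. TENM2, a teneurin adhesion protein with a span of 1285 kb, had 13 members in 46 shared regions and a low RNA level that did not pass the test (8.38 ± 0.20 with sorafenib, 12.4 ± 1.01 with DMSO). HIVEP3 had 10 of 32, ARHGAP26 9 of 28 and MID1 8 of 23, and none of these passed. GLI2, a Hedgehog effector, had members in 8 of 17 shared regions (47.1%) and fell to 274 ± 22.1 with sorafenib, against 624 ± 17.6 with DMSO. The member with the lowest ratio among these 8 (chr2:120978254-120979200) had 5.32 and 4.37 with sorafenib and 15.6 and 21.3 with DMSO. PDE4D, a cyclic AMP phosphodiesterase, had 9 of 55 and fell by 1.34 on the log2 scale, while the kinase gene PRKCE had 8 of 28 and rose by 0.70.

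Among 16 gene lists, liver transcription factors had the highest share of members, just above the background of 12.7%. Members were 9 of their 63 shared regions (14.3%), and 6 of 20 genes had at least 1. The 4 tested of these, among them HNF4A, GATA4 and RXRA, all fell, with a median log2 change of -1.45, and of the 6 tested without a member 5 fell and 1 rose. HNF4A averaged 117 in sorafenib libraries and 340.5 in DMSO libraries, and its member, 20.9 kb from a listed start, had 5.62 and 4.53 with sorafenib and 8.74 and 9.96 with DMSO. Among YAP and TEAD targets members were 13 of 92 shared regions (14.1%). Of their 7 genes with a member 4 fell (AXL, F3, ARHGEF17 and CRIM1) and 2 rose (NT5E and TGFB2), while of the 8 without one 7 rose and 1 fell. Metallothionein and zinc genes had 3 of 23 (13.0%), at MT1X, SLC30A10 and the zinc importer SLC39A10, which fell by 1.06.

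DNA methylation genes had 5 of 39 (12.8%), and the other 12 lists lay below the background share. Cell cycle genes had no member in 39 shared regions, ERK output genes 1 of 57, sterol genes 2 of 53, hypoxia-inducible genes 2 of 52 and NF-kB inflammatory genes 2 of 32. Both NF-kB genes with a member rose, NFKB1 (log2 change 0.57) and BIRC3, an inhibitor of apoptosis (1.61), as did all 14 without one. Among growth factor receptors the members were 7 of 90, and IGF1R and INSR, the insulin-like growth factor and insulin receptors, fell by 1.06 and 1.41. HK2, the first enzyme of glycolysis, had 4 members in 11 shared regions and fell by 0.41, and VCL, the focal adhesion protein vinculin, had 4 of 9 and fell by 0.31. Lists differ in how many of their regions hold starts, and this part of the shares was not tested.

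With MT1G overexpression, which had no ATAC-seq, genes linked to members were tested in the same way. Over all 13914 genes tested 11.3% were lower and 11.5% higher. Of 2586 linked genes 332 (12.8%) were lower and 435 (16.8%) higher than with the empty vector, and of 9707 genes linked to a shared region but no member 1165 were lower and 1113 (11.5%) higher. The excess of rises was not particular to members. Of 212 tested genes linked to a region of the mirrored rule 26 (12.3%) were lower and 44 (20.8%) higher. Their median log2 change was 0.124, against 0.0399 for genes linked to a member. The gap between genes with and without a member differed between classes of gene length. For spans over 150 kb 20.5% of genes with and 17.9% of genes without a member were higher, and 8.19% and 6.58% were lower. For spans of 50 to 150 kb 17.7% with and 18.2% without were higher, and 11.1% and 6.41% were lower. For spans up to 50 kb 11.2% with and 9.17% without were higher, and 20.8% and 13.9% were lower. The lower share was thus larger with a member in every class. The median log2 changes with and without a member were 0.107 and 0.108, 0.0523 and 0.102, and -0.0644 and -0.0506 in the same order. Of 108 tested genes that start in a member 30 (27.8%) were lower and 15 (13.9%) higher, with a median log2 change of -0.08, against 11.5% lower and 12.9% higher of 8934 genes with a start in a shared region and none in a member. With starts in members kept after division by the library median, 5 of 21 were lower and 5 higher, with a median of 0.22. Among linked genes the largest rises were in OAS2, an interferon-induced sensor of RNA, with 293, 322 and 236 normalized read counts with MT1G, against 1.10, 3.58 and 0 with vector, and in SPOCK1, a matrix proteoglycan (1684 ± 93.1 with MT1G, 114 ± 4.79 with vector). NT5E, which makes adenosine at the cell surface, had 451 ± 105 with MT1G and 59.5 ± 8.35 with vector. The largest falls were in the adhesion gene CADM4 (156 ± 29.6 with MT1G, 543 ± 40.9 with vector) and in MYLK3, a myosin light chain kinase (130 ± 12.4 with MT1G, 439 ± 32.1 with vector). MYLK3 has 1 of its 2 listed starts in a member and was also lower with sorafenib (142 ± 1.42, against 308 ± 7.86 with DMSO). PRSS23 (log2 change 0.82) and TRAF1 (1.31) were higher with MT1G.

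None of the 4 genes of the series title was linked to a member. DNMT1, the maintenance DNA methyltransferase, had 1 shared region with a ratio of 0.807. KLF4, a zinc finger transcription factor, had 3 with ratios from 0.754 to 1.43. MT1G and CA9, a carbonic anhydrase, had no region with a peak in all 4 libraries within 2 kb.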

How the data were processed

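Chromatin accessibility was measured in 4 ATAC-seq libraries and RNA in 12 libraries. Per the submitters' processing notes the tools included Bowtie2 2.4.1, MACS2 2.2.7.1, HISAT2 1.1.0, featureCounts 1.6.1 and DESeq2, with build hg38. The authors deposited a peak list for each ATAC-seq library, in which column 7 is read as MACS2's fold enrichment (a ratio over local background), column 9 as -log10 of a q-value and column 5 as a score. RNA tables were deposited as normalized read counts per gene (a signal, not whole numbers), with the authors' log2 fold changes and p-values, which were not used. Columns there carry numbers, which were taken as the replicate numbers of the sample titles. No depth was given for ATAC-seq, so heights carry no counting interval.

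Peaks sharing at least 1 bp were merged. For each comparison limma 3.58.1 (R 4.3.3; trend and robust) was fitted to log2(normalized read count + 1) for genes whose 6 libraries averaged 10 or more. For both RNA comparisons 100% of values came out as whole reads within 0.001 once size factors were undone, giving 16549330 to 21082356 reads a library with sorafenib or DMSO and 16844722 to 26781600 with MT1G or vector. edgeR 4.0.16 and DESeq2 1.42.0 were alternatives on the reads of the sorafenib comparison only. edgeR called 5079 genes lower and 5378 higher, against 5347 and 5137 by limma. Of 14915 tested genes 13541 (90.8%) were placed in the RefSeq gene table, by symbol or synonym.

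Named regions were those with the 10 lowest ratios, the 10 highest DMSO means and 3 on each side of the limit. Named linked genes had a mean of at least 100 and passed the test: the 12 largest falls and 8 largest rises with sorafenib, 5 of each with MT1G, the 10 genes with the most members, and genes of the 16 lists (306 genes). Genes named for a start in a member (such as MUC13, NES, SYDE1, CYBA, RARG, LIFR, TRIM54 and IL1B) were chosen after their values were seen. The members and lists were chosen with earlier results of these data known. A few named genes and regions are not reported here. The genome sequence was not used here, so distal members have no sequence.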

Additional observations from a re-analysis of the deposited data

How the results depend on the processing

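The number of members depended on the scale and on the libraries: 9575 became 3165 after division by the library median, and leaving out a library gave 6226 (without DMSO replicate 2) to 14979 (without DMSO replicate 1). With the members left after that division, linked genes numbered 416 lower and 300 higher with sorafenib and 110 lower and 224 higher with MT1G (median log2 change 0.0927). The number of these linked genes tested is not given here. Their counts thus cannot be set against the shares over all genes. Those shares were 35.8% lower and 34.4% higher with sorafenib, and 11.3% and 11.5% with MT1G. Of 22 tested genes starting in a member left after that division, 13 were lower and 7 higher with sorafenib. Without a filter on low values the median of linked genes with sorafenib turned to 0.0248, and that of genes starting in a member was -0.10. The MT1G median was 0.0616 with TMM factors and 0.0226 to 0.0587 when a library was left out, and 166 to 354 linked genes were then lower (212, 176 and 166 without vector replicates 1, 2 and 3). The causes were not tested. The other 123 of 140 alternative values stayed within their limits, and all 578 alternative values of 46 named genes kept direction and call. In 200 bp windows 9 motif shares moved, among them ETS to 2.18% and NRF1 to 0.364%. Replicate numbers did not pair the samples (correlations of -0.14 to 0.04), and with the replicate as a block linked genes numbered 1070 lower and 722 higher with sorafenib, and 310 lower and 456 higher with MT1G. The planned count tests on the MT1G table were not run. With 2 libraries a group, the ATAC-seq ratios have no test.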

Other observations

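Some genes with a start in a member were near or at 0 in the DMSO libraries. The long non-coding RNA LINC00973 averaged 65.1 in sorafenib libraries and 0.375 in DMSO libraries, in normalized read counts. POU3F1, a POU-domain transcription factor gene, averaged 35.2 with sorafenib and was listed at 0 in all 3 DMSO libraries. Both passed the limma test. The antisense RNA STXBP5-AS1, with members in 7 of 15 shared regions and none at a listed start, averaged 25.5 with sorafenib and 6.86 with DMSO. LINC00973 and POU3F1 were named after their values were seen.

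Among the DNA methylation genes, DNMT3A, a de novo methyltransferase, had 1 member in 4 shared regions and averaged 121 with sorafenib and 226 with DMSO. In the hepatocyte list CPS1, the first enzyme of the urea cycle, had 1 member in 6 shared regions and averaged 6588 with sorafenib and 17159 with DMSO.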
